A study of Mus musculus with 6 samples.

Results

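The granins and the enzymes that process prohormones were examined on 6 mouse expression arrays through every probe that the scanner files list under the symbols Chga, Chgb, Scg2, Scg3, Scg5, Vgf, Pcsk1, Pcsk1n, Pcsk2 and Cpe. These are 10 of the 37074 gene names and 12 of the 56605 probes on the array. A single probe measured each of 8 genes, and 2 probes each measured Vgf and Pcsk2. The arrays hold RNA of tissue labelled hypothalamus from male C57BL/6J DIO mice, which are mice made obese by a diet with 60 kcal% fat, here fed for 16 weeks. GSK-J4, a compound that inhibits the enzymes erasing the repressive histone mark H3k27me3, was given at 30 mg/kg to 3 mice, and 3 mice received vehicle (0 mg/kg). Each array holds the RNA of a different mouse, collected at ZT 6 h, where ZT is the time after lights on. The text deposited with the arrays places them on day 4, while the methods describe a course of 21 d. Both groups share strain, sex and diet, and no lean or untreated mice are among these arrays.

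Granins are acidic proteins of the dense-core granule, the vesicle in which neurons and endocrine cells store peptide hormones. Prohormones are cut inside the granule by the convertases encoded by Pcsk1 and Pcsk2, and the basic residues left at the cut ends are then trimmed by carboxypeptidase E, encoded by Cpe. In the hypothalamus the same route makes the feeding peptides, such as α-MSH from the Pomc precursor.

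The probes are 60 bases long, and their coordinates are given in the files on mm9. No mm9 annotation was used here, so that exon, intron or UTR is not assigned. The first 30 bases, 5′ to 3′, are shown for the convertases, for Pcsk1n and for Vgf, because the results below turn on which probe of a gene is read and on its base composition.

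Pcsk1 (A_52_P500979, chr13:75269727-75269786, plus strand): tgctgcaagctctcatggacatcctaaatg
Pcsk2 (A_51_P229613, chr2:143639649-143639708, plus strand): gacacaagcaatcccagcctggtctcaagc
Pcsk2 (A_55_P2718648, chr2:143402367-143402426, plus strand): cagaagccatcagggaacctactaaggtta
Pcsk1n (A_52_P496202, chrX:7500267-7500326, plus strand): gccccagcaaccctgactccctgccagcac
Vgf (A_55_P2085060, chr5:137509153-137509212, plus strand): ctctgttgtaaatacccctcacggaggaaa
Vgf (A_66_P117361, chr5:137508414-137508473, plus strand): atgagttgccggactggaacgaagtgctcc

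The 2 probes of Pcsk2 were designed on different records, NM_008792 for the first and the Ensembl transcript ENSMUST00000124751 for the second, and lie 237 kb apart. Over all 60 bases the GC content was 66.7% for Pcsk1n, 60% for Vgf A_66_P117361, 41.7% for Pcsk1 and 35% for both Vgf A_55_P2085060 and the Pcsk2 probe of the Ensembl record.

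Some properties of the arrays touch every value below. The vehicle arrays share slide 1 and the GSK-J4 arrays share slide 2, which was scanned on another day, so that slide, scan and treatment cannot be told apart. The 75th percentile of the spot signal was 1140 to 1340 for vehicle and 606 to 693 for GSK-J4. Of 10 hypothalamus markers, 3 were well above background on all 6 arrays and 3 (Nkx2-1, Otp and Sim1) on none, whereas all 8 markers of thalamus and cortex were above it on every array. Of 9 pituitary markers, 7 (Gh and Prl among them) were above background on no array. For 6 choroid plexus markers the log2 of the summed signal was 16.72 on vehicle array 1. On the other vehicle arrays it was 11.34 and 11.45, and on the GSK-J4 arrays 13.54, 11.19 and 12.38. The part of dissection in the results was not tested. In bulk tissue, fewer cells of a type and less RNA per cell cannot be told apart.

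Signal stood well above background for the 12 probes on each of the 6 arrays, with 0 saturated spots. In the deposited quantile normalized log2 signal, 7 were higher and 5 were lower with GSK-J4. The difference was at most 0.2 log2 units for 8 of the 12 probes. The largest were 0.60 for Pcsk1 and -1.13 for the Pcsk2 probe of the Ensembl record, while the other Pcsk2 probe gave 0.17. With limma and Benjamini-Hochberg adjustment over the 34443 probes kept, which had to be well above background throughout 1 group or both, 2 of the 12 member probes passed an adjusted p of 0.05. These were the Pcsk1n probe, which was higher, and the Pcsk2 probe of the Ensembl record, which was lower. That is 16.7% of the members against 16.8% of all kept probes, of which 8.39% were higher and 8.42% lower. Vehicle and GSK-J4 values were fully apart for 3 member probes, or 25%, compared with 45.6% of all kept probes. The median log2 difference of the members was 0.04, and that of all kept probes was 0.024 (interquartile range -0.24 to 0.25). The share of members called was thus near that of all kept probes, and the share fully apart was lower. The adjusted calls rested on the vehicle arrays, since leaving out vehicle 1, 2 or 3 left 10, 13 or 5 calls among all probes and 0 among the members. An exact permutation test of 3 arrays against 3 has 20 orders and cannot give a two-sided p below 0.1.

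**Figure D1:**
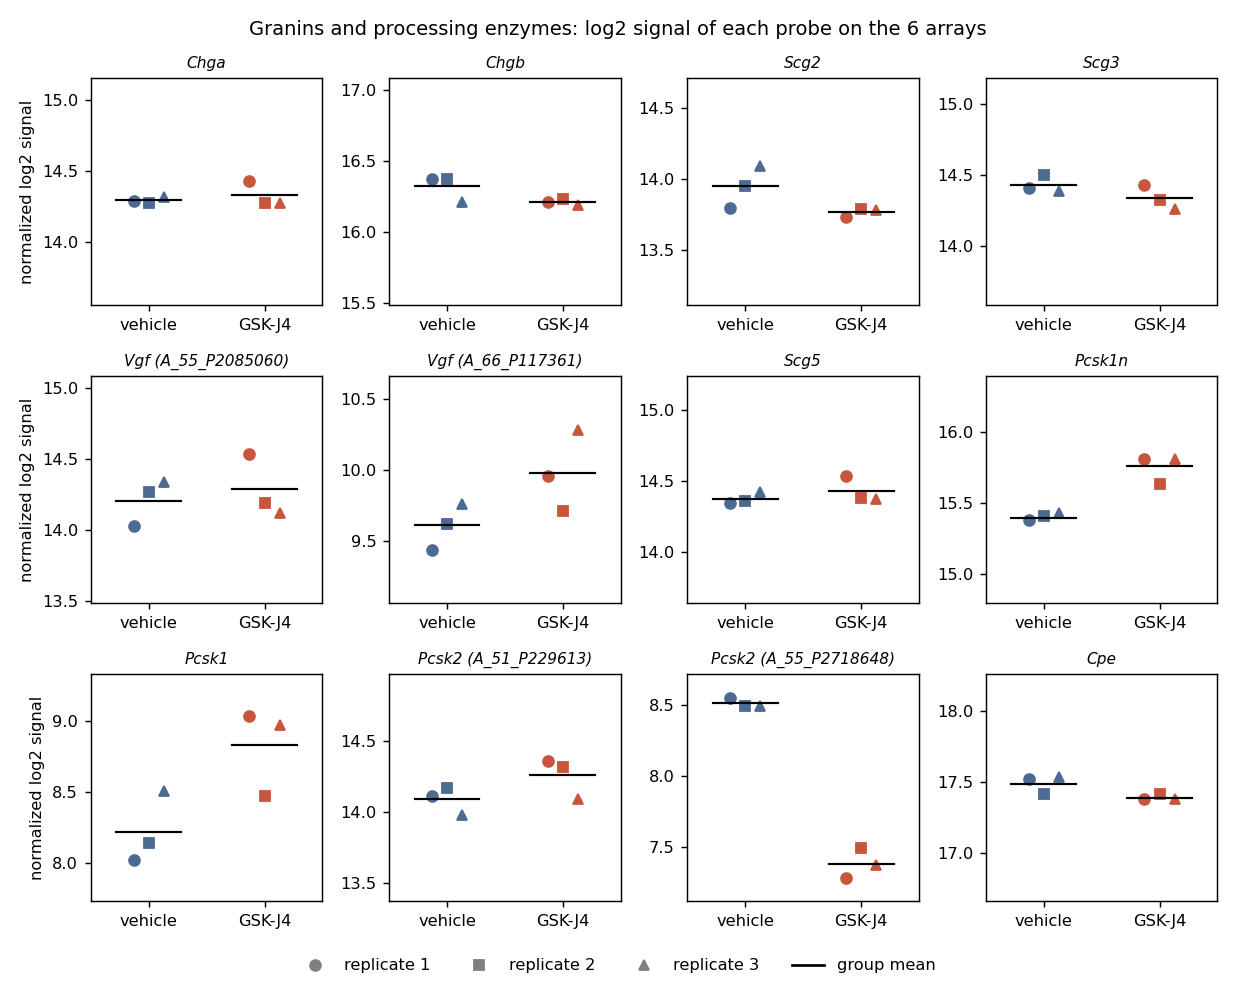
Normalized log2 signal of the 12 probes of granins and processing enzymes on each array, with vehicle in blue, GSK-J4 in red, a marker shape for each replicate number and a line at the group mean (n = 3). Each panel spans the same range of log2 units around its own level. The groups are apart for Scg2, Pcsk1n and the Pcsk2 probe A_55_P2718648 and overlap in the other 9 panels.

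Among the granins, Chga encodes chromogranin A, a core protein of the dense-core granule. Its log2 signal was 14.29, 14.28 and 14.32 in the vehicle arrays and 14.43, 14.28 and 14.28 in the GSK-J4 arrays. A single GSK-J4 array stood above an otherwise common level, and the difference was 0.04 (SE 0.08, 95% interval -0.15 to 0.22, limma adjusted p = 0.759).

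Chgb, which encodes chromogranin B, gave 16.37, 16.37 and 16.21 with vehicle and 16.21, 16.23 and 16.19 with GSK-J4. Vehicle array 3 lay among the GSK-J4 arrays, and the difference was -0.11 (SE 0.08, limma adjusted p = 0.357). The probe is printed in 10 spots per array, so its technical spread could be read directly. The SD of the log2 spot signal within an array was 0.0283 to 0.177 over the 9 or 10 spots used.

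Scg2 encodes secretogranin II, the precursor of the peptide secretoneurin. The vehicle arrays read 13.80, 13.95 and 14.09, and the GSK-J4 arrays read 13.73, 13.79 and 13.78. Every GSK-J4 array was below every vehicle array, by 0.01 at the closest, and the spread was wider among the vehicle arrays (SD 0.14, n = 3) than among the GSK-J4 arrays (SD 0.03, n = 3). The log2 difference of -0.18 did not pass the test (SE 0.09, limma adjusted p = 0.221, exact permutation p = 0.1) and was -0.04 after the trend with GC content was removed.

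Scg3 encodes secretogranin III, which binds chromogranin A to the granule membrane. It gave 14.41, 14.50 and 14.39 with vehicle and 14.43, 14.32 and 14.26 with GSK-J4. The groups overlapped, with a difference of -0.09 (SE 0.08, limma adjusted p = 0.435).

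Vgf encodes a granin-like precursor that is cut into several peptides and is known for its part in energy balance. Its probe A_55_P2085060 read 14.03, 14.27 and 14.34 in vehicle and 14.54, 14.19 and 14.12 in GSK-J4 arrays. The highest and the second lowest value both came from GSK-J4 arrays, and the difference was 0.07 (SE 0.15, limma adjusted p = 0.742). Without vehicle array 1 it was -0.02, and without GSK-J4 array 1 it was -0.05. The other probe, A_66_P117361, read 9.44, 9.62 and 9.76 with vehicle and 9.96, 9.71 and 10.28 with GSK-J4. Here 2 GSK-J4 arrays were above all vehicle arrays, and the difference of 0.38 did not pass the test (SE 0.17, 95% interval -0.04 to 0.80, limma adjusted p = 0.169). The difference between the results of the 2 probes was 0.30 and did not pass (SE 0.21, limma adjusted p = 0.375). Within each array the second probe relative to the first was -4.59, -4.65 and -4.57 with vehicle. It was -4.58, -4.49 and -3.84 with GSK-J4, where array 3 stood apart. After the correction for GC content the probes gave 0.22 and 0.11.

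Scg5 and Pcsk1n encode small proteins that bind the convertases. Scg5 encodes 7B2, the chaperone that the convertase PC2 needs to become active. It gave 14.34, 14.36 and 14.42 with vehicle and 14.53, 14.38 and 14.37 with GSK-J4, a difference of 0.05 (SE 0.08, 95% interval -0.14 to 0.24, limma adjusted p = 0.656), and the groups overlapped.

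Pcsk1n encodes proSAAS, an inhibitor of the convertase PC1/3. It read 15.38, 15.41 and 15.43 in the vehicle arrays and 15.81, 15.64 and 15.81 in the GSK-J4 arrays. The lowest GSK-J4 array was 0.21 above the highest vehicle array. From 15.40 ± 0.03 (SD, n = 3) the level rose to 15.76 ± 0.10 (SD, n = 3), a 1.28-fold rise (log2 difference 0.35, SE 0.08, limma adjusted p = 0.0377). Its probe has the highest GC content among the members, 66.7%, and on these arrays the group difference followed GC content. Probes with 35% GC had a median difference of -0.15, and the 43 kept probes with 66.7% GC had a median of 0.25 and an interquartile range of 0.08 to 0.41, which holds the value of Pcsk1n. Once the trend with GC content was removed within each array, the difference of Pcsk1n was 0.02 (limma adjusted p = 0.874). The call was also lost without vehicle array 1 (adjusted p = 0.102), 2 (0.119) or 3 (0.108) and without GSK-J4 array 1 (0.0861) or 3 (0.0736).

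**Figure D2:**
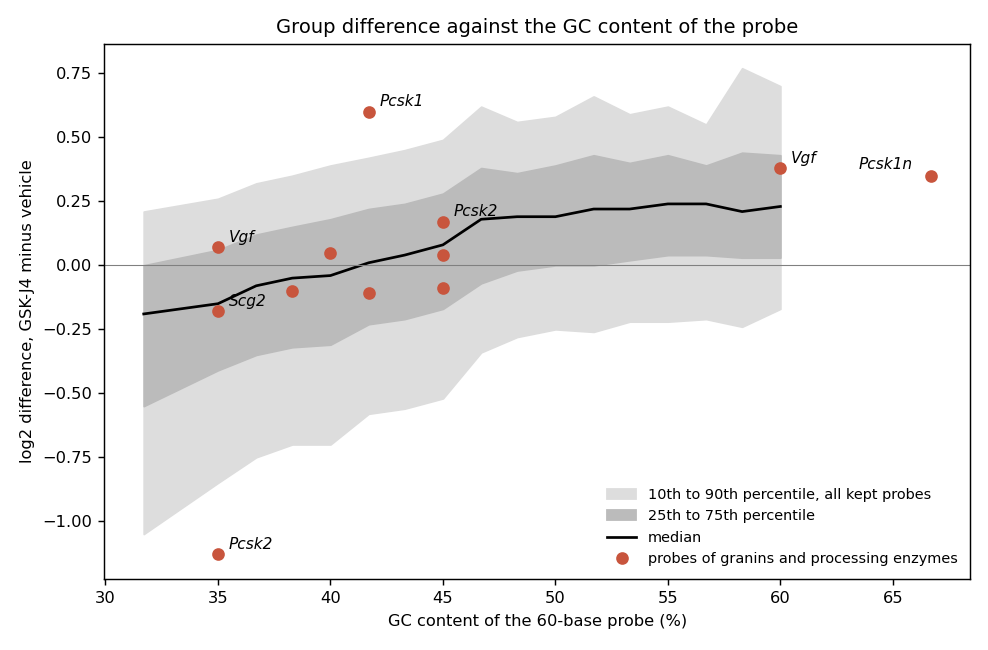
Log2 difference (GSK-J4 minus vehicle) against the GC content of the 60-base probe. Red points are the 12 member probes, the line is the median of all kept probes, and the bands are their 10th to 90th and 25th to 75th percentiles, drawn where at least 100 probes share a GC content, so that they end before Pcsk1n. Pcsk1n and the GC-rich Vgf probe lie on the rising side of the trend, and Pcsk1 and the Pcsk2 probe at -1.13 lie outside the wider band.

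The largest differences were those of Pcsk1 and of the Pcsk2 probe of the Ensembl record. Pcsk1 encodes PC1/3, the convertase that makes the first cuts in POMC and many other precursors. Its signal was 8.02, 8.14 and 8.51 in the vehicle arrays and 9.04, 8.47 and 8.97 in the GSK-J4 arrays. The groups overlapped by 1 array on each side, since the lowest GSK-J4 array lay just under the highest vehicle array. From 8.22 ± 0.25 (SD, n = 3) to 8.83 ± 0.31 (SD, n = 3), the difference of 0.60 (1.52-fold, SE 0.20, 95% interval 0.11 to 1.1) did not pass the test over all probes (limma adjusted p = 0.09, exact permutation p = 0.2). The methods ask for 1.5-fold and for p up to 0.05 without adjustment, which Pcsk1 met with limma's unadjusted p of 0.025 and did not meet with the methods' t-test. The value was 0.60 after GC correction too and 0.55 with 75th percentile scaling. Over the 15 alternatives it ranged from 0.50 to 0.78 with a limma adjusted p of 0.0498 to 0.218, and it passed in 1, at 0.78 without GSK-J4 array 2.

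Pcsk2 encodes PC2, which works after PC1/3 and makes the shorter peptides. The probe of NM_008792 gave 14.11, 14.17 and 13.98 with vehicle and 14.36, 14.32 and 14.09 with GSK-J4. GSK-J4 array 3 lay within the vehicle range while the other two were above it, and the difference of 0.17 did not pass (SE 0.10, 95% interval -0.09 to 0.43, limma adjusted p = 0.289). The probe of ENSMUST00000124751 went the other way. It read 8.55, 8.49 and 8.49 in the vehicle arrays and 7.28, 7.49 and 7.37 in the GSK-J4 arrays. The groups were 1 log2 unit apart at the closest. From 8.51 ± 0.03 (SD, n = 3) it fell to 7.38 ± 0.10 (SD, n = 3), 2.19-fold lower (log2 difference -1.13, SE 0.08, limma adjusted p = 0.00919, exact permutation p = 0.1).

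The 2 Pcsk2 probes differed from each other in their response. Taken within each array, the signal of the second probe relative to the first was -5.56, -5.67 and -5.49 with vehicle and -7.08, -6.83 and -6.72 with GSK-J4, a shift of -1.30 (SE 0.13, limma adjusted p = 0.02 over 12326 pairs of probes of the same gene, of which 10.1% passed). The second probe has 35% GC, and the 10th percentile of all kept probes with that content was -0.85. After GC correction it remained lower at -0.99 (limma adjusted p = 0.0154), and it was -1.22 with 75th percentile scaling. Its adjusted p was 0.0587, 0.0607 and 0.0683 without vehicle array 1, 2 and 3, with values from -1.14 to -1.11. A symbol-level reading of Pcsk2 thus depends on which record is read. Between and around these probes the array carries 2 antisense records of the locus, which were designed on the opposite strand. Pcsk2os1, at -38.7 kb from the second probe, gave 0.56 (SE 0.22, limma adjusted p = 0.133), and Pcsk2os2, at 171 kb from it, gave -0.16 (SE 0.38, limma adjusted p = 0.784).

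**Figure D3:**
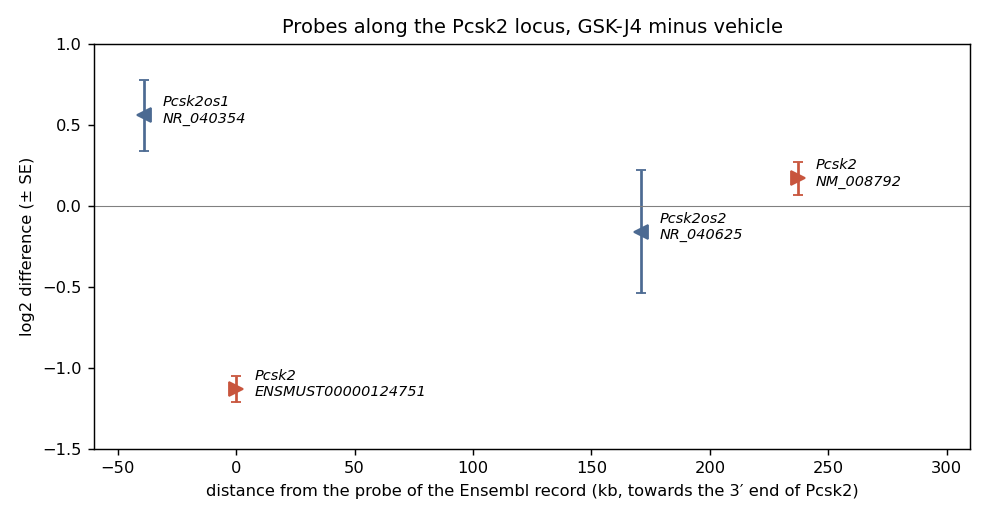
Log2 difference (GSK-J4 minus vehicle, bars are SE of limma) of the probes along the Pcsk2 locus, by distance in kb from the probe of ENSMUST00000124751. Right-pointing markers are probes on the plus strand (Pcsk2, red) and left-pointing markers are on the minus strand (antisense records, blue), and the Ensembl record at -1.13 is the one whose bar stays clear of 0 on the lower side.

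Cpe encodes carboxypeptidase E. It gave 17.52, 17.42 and 17.54 with vehicle and 17.38, 17.42 and 17.38 with GSK-J4. The groups met at 17.42, and the difference was -0.10 (SE 0.07, 95% interval -0.27 to 0.07, limma adjusted p = 0.351).

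The signs of the small differences depended on how the arrays were scaled. Quantile normalization gives every array the same distribution, whereas scaling each array to its 75th percentile leaves the bright end free to differ. Under the latter the 5174 kept probes with a mean above 12 had a median difference of 0.29, and the median of all kept probes was 0.05. Chgb then read 0.38 (limma adjusted p = 0.0265), Cpe 0.48 (0.0183), Scg3 0.24 (0.122) and Scg2 0.12 (0.436), so these 4 turned from lower to higher. Chga read 0.36, Scg5 0.39, the NM_008792 probe of Pcsk2 0.49 and Pcsk1n 0.81, all of which passed. In all 7 of the 12 member probes passed under this scaling, 58.3% against 25.2% of all kept probes, and 6 of them were higher, against 14.6% of all kept probes. The share of members called was thus near that of all probes with quantile normalization and above it with 75th percentile scaling, and the share of higher among all calls moved from 49.9% to 58%. Most member probes are themselves bright, and the share called among bright probes alone was not computed. Under this scaling 4 of 10 neuron, 4 of 7 astrocyte and 3 of 7 oligodendrocyte markers passed, all higher. Of 25 other granule genes 1 passed, and of 8 early genes induced by neuronal activity 0. Relative to the median of the bright probes, Chga lay at 0.07, Chgb at 0.09, Scg3 at -0.05, Scg2 at -0.18 and Cpe at 0.19. No direction is therefore given for Chga, Chgb, Scg2, Scg3, Cpe or Vgf A_55_P2085060, whose signs changed under at least 1 alternative. Pcsk1, Pcsk1n, both Pcsk2 probes and Vgf A_66_P117361 kept their signs under each alternative run, as did Scg5, whose value ranged from 0 to 0.39.

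**Figure D4:**
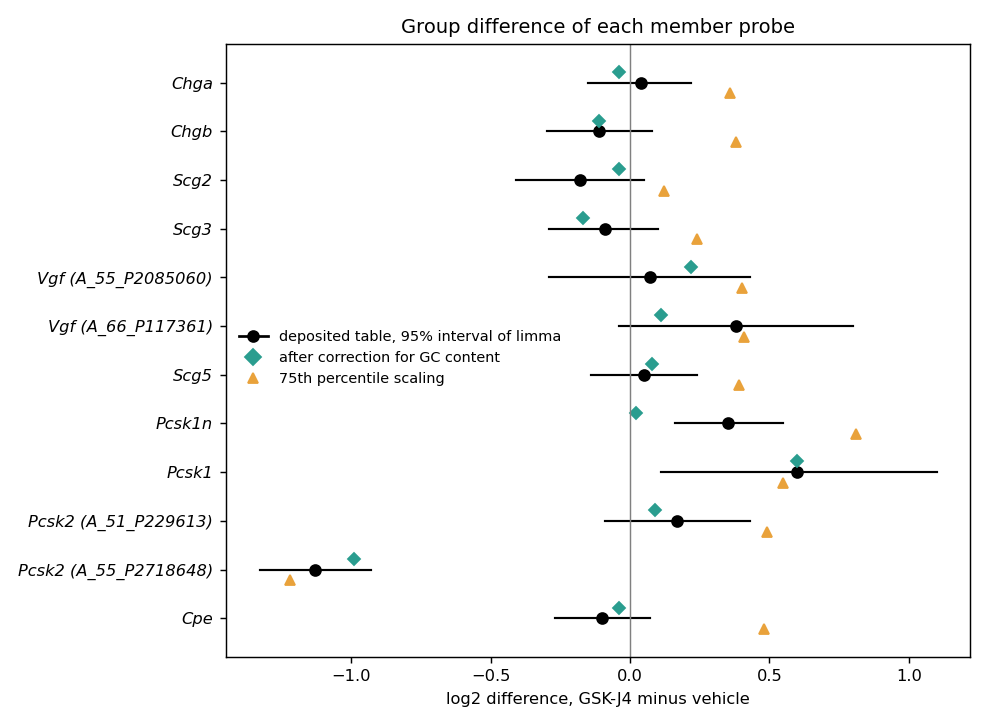
Log2 difference (GSK-J4 minus vehicle) of each member probe in the deposited table (black, with the 95% interval of limma), after removal of the GC trend (green) and with 75th percentile scaling in place of quantile normalization (orange). Chgb, Scg2, Scg3 and Cpe lie below 0 in the deposited table and above it with 75th percentile scaling, Chga turns to -0.04 with GC correction, and the Pcsk2 probe A_55_P2718648 is the lowest under all 3.

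The promoters were compared for sequence that the members share. RefSeq windows of 250 bases before the start on GRCm38.p6 were at hand for 8 of the 10 members. Vgf and Cpe had no window and were not read. The letters TGACGTCA, the full cAMP response element that CREB family factors can bind and which reads the same on both strands, were found in 3 of the 8 (Chgb, Pcsk1 and Scg2) and in 1.55% of all 32851 windows. Its part TGACG, searched on both strands and contained in the full element, was found in 7 of the 8 and in 17.8% of all windows. Both contain the letters CG, of which the 8 member windows held 5 to 35, against a median of 6 over all windows. The part of this base composition in the shares was not tested. The 60 bases around the element are shown, 5′ to 3′ on the strand of the gene with the element in capitals. These 3 genes carry it in full among the 8 members read.

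Chgb (chr2:132781544-132781603, plus strand): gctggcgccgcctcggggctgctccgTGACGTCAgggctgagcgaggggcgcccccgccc
Pcsk1 (chr13:75089753-75089812, plus strand): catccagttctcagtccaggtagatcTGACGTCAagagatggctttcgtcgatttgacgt
Scg2 (chr1:79440061-79440120, minus strand): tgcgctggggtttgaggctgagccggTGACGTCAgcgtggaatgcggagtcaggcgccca

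The element lies 72 bases before the start in Chgb, 78 in Pcsk1 and 68 in Scg2. The log2 differences of these 3 genes were -0.11 for Chgb, 0.60 for Pcsk1 and -0.18 for Scg2, none of which passed, and with 75th percentile scaling they were 0.38, 0.55 and 0.12, of which Chgb passed. A match is a description of the letters and not of binding. Of 8 regulators of such promoters, 0 passed limma's test on the brightest probe of the gene (0 higher, 0 lower), with Creb1 at -0.15 (adjusted p = 0.529, with 1 of its 5 probes passing) and Rest, the repressor of neuronal genes, at 0.35 (adjusted p = 0.181). Of 8 early genes induced by neuronal activity, Fos and Arc among them, 0 passed. The share over all kept probes was 16.8%.

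Around the members, 25 other genes of secretory granules and peptide processing were read on the brightest probe of each. Of these 2 were higher, 1 was lower and 22 did not pass. By comparison 16.8% of all kept probes passed, with 8.39% higher and 8.42% lower. The median difference of the 25 genes was -0.12, against 0.024 for all kept probes, and turned to 0.05 with 75th percentile scaling. Resp18, a granule protein of neuroendocrine cells, rose by 0.91 (SE 0.23, limma adjusted p = 0.0474) and Pcsk4, the convertase of germ cells, by 0.67 (SE 0.17, limma adjusted p = 0.0476). Atp6ap2, an accessory subunit of the proton pump that acidifies the granule, was lower at -0.37 (SE 0.09, limma adjusted p = 0.0408). After GC correction Resp18 was 0.99 (limma adjusted p = 0.0528), Pcsk4 0.43 and Atp6ap2 -0.22, and none of the 3 passed, while Ptprn2, a granule membrane protein, passed there at -0.43 (limma adjusted p = 0.0391) and gave -0.20 without the correction (limma adjusted p = 0.198). With 75th percentile scaling only Resp18 of the 25 passed, at 1.04, against 25.2% of all kept probes. None of the 25 passed when any vehicle array was left out. Pam, which amidates peptide ends, gave 0.06, the convertase Furin -0.28 and the granule membrane protein Ptprn -0.12, none of which passed. Among genes whose brightest probe did not pass, Pam had 2 of 5 probes past the test, Ptprn2 had 3 of 5, and Cadps2, Cpd, Pcsk5 and Sort1 had 1 each.

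Of 24 precursors on which these enzymes can act, 21 were kept, and 3 passed the test, all of them higher. Over all kept probes 16.8% passed, with 8.39% higher and 8.42% lower. The difference was positive for 18 of the 21, and the median was 0.39 against 0.024 for all kept probes. With 75th percentile scaling 18 were positive (median 0.46), and with GC correction 16 were (median 0.40). Kiss1 was kept through the GSK-J4 arrays alone, being well above background on 3 of them and on 2 vehicle arrays. The vehicle means of Kiss1, Agrp, Hcrt, Ghrh and Oxt were low, at 4.24 to 5.7. Pomc rose by 0.85 (SE 0.14, limma adjusted p = 0.022), Npy by 0.42 (SE 0.08, limma adjusted p = 0.0267) and Pnoc, the nociceptin precursor, by 0.40 (SE 0.08, limma adjusted p = 0.0316). After GC correction Pomc was 0.62 and Pnoc 0.43, both still past the test, and Npy was 0.22 (limma adjusted p = 0.0985). Leaving out any vehicle array left 0 precursors past the test. For Ghrh, 1 of 2 probes passed and the brighter gave 0.39 (limma adjusted p = 0.155). Of the neuron markers, 1 of 10 passed and was lower (Map2, -0.33, but 0.10 with 75th percentile scaling). The log2 of the summed signal of the neuron markers was 18.01 to 18.04 with vehicle and 17.93 to 18.12 with GSK-J4. For the thalamus and cortex markers the log2 of the summed signal was 13.51 to 13.58 with vehicle and 13.23 to 13.40 with GSK-J4. Among them Neurod6 was lower (-0.47), and Emx1 (0.53) and Tnnt1 (0.66) were higher. The hypothalamus markers kept were Agrp, Hcrt, Oxt and Pomc, which are also among the precursors. All 4 were higher, with a median of 0.46, and Pomc alone passed. The log2 of their summed signal was 8.42 to 8.55 with vehicle and 8.94 to 9.48 with GSK-J4. With 75th percentile scaling 2 of the 4 were positive (median 0.32), as with GC correction (median 0.27). Of the other lists, 1 of 6 microglia markers (C1qa, 0.41) and 1 of 6 ependyma and tanycyte markers (Rax, 1.09) passed, both higher. In each of these lists 4 of the 6 differences were positive, and 16.8% of all kept probes passed. The Rax probe was dim, at 3.86 to 5.55. It was kept through the GSK-J4 arrays alone, being well above background on 3 of them and on 2 vehicle arrays. With normexp background correction Rax gave 0.35 (limma adjusted p = 0.0701). After GC correction Neurod6 was -0.32, Emx1 0.30, Tnnt1 0.42 and C1qa 0.18, none of which passed, and Rax passed at 1.18. Among markers whose brightest probe did not pass, 2 of 4 probes of Gja1, 2 of 3 of Syt1, 1 of 3 of Snap25, 1 of 2 of Slc1a3 and 1 of 2 of Ly6c1 passed. Their part in the values of the members was not tested.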

How the data were processed

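RNA from tissue labelled hypothalamus was measured on 6 one-colour Agilent mouse arrays, 3 for each group. The authors ran Agilent Feature Extraction 10.7.1.1 and deposited the background-subtracted intensity of every spot with other values, the flags of 0 or 1. The deposited log2 table covers 56745 probes including controls and is, per the methods, quantile normalized in GeneSpring. Table and scanner values correlated at 0.999 or above across probes. Columns were matched by sample, with 0 unassigned.

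Differences were tested on the deposited log2 table with limma 3.58.1 (lmFit and eBayes, two-sided) and the package data.table (version 1.17.8) in R 4.3.3, with Benjamini-Hochberg adjustment over the 34443 kept probes. Control spots and outlier spots were left out when spot signals were used. Tested on simulated data (34443 probes, 200 shifted by 1 log2 unit, independent noise), the fit recovered 63.2% of the shifted probes, and 4.65% of its calls were false. The simulation held no slide effect and shifted far fewer probes than the 5788 called on the arrays. Its shares therefore do not carry over to the calls reported here. The number of arrays limits the precision. The members and lists were chosen with earlier results of these data known. Named were all members with every probe, list genes with a probe past an adjusted p of 0.05, and Pam, Furin, Ptprn, Rest and Creb1. Other list genes are named as examples or for their detection or low signal. A list gene was read on its brightest probe. The 14 lists hold granule genes, precursors, promoter regulators, early genes, and markers of hypothalamus, neurons, astrocytes, oligodendrocytes, microglia, endothelium, choroid plexus, ependyma and tanycytes, pituitary, and thalamus and cortex. GC correction removed a lowess trend (span 30%) from each array. Alternatives were other normalizations, background corrections (normexp, offset 50), filters, variance models, array weights, a replicate block, the methods' t-test, 1 probe a gene, and leaving out each array. For the precursors, and for the granule genes without a vehicle array, the alternatives were chosen after seeing the data.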

Additional observations from a re-analysis of the deposited data

How the results depend on the processing

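The 15 alternatives run for each member probe gave 180 values, of which 156 kept their direction and side of the threshold, 8 changed sign, 12 lost a call and 4 gained one with the same sign. Of the 8 that changed sign, 2 (Chgb and Cpe with 75th percentile scaling) also gained a call, which makes 6 gains. The deposited table gave 5788 calls over all probes and 2 among the members. These became 8685 and 7 with 75th percentile scaling, 3765 and 1 with no filter on dim probes, 3687 and 1 with GC correction, 2938 and 1 with the methods' t-test at 1.5-fold and unadjusted p, 93 and 0 with that t-test after Benjamini-Hochberg adjustment, and 3387 and 1 with 1 probe a gene name. Leaving out 1 array gave from 5 to 4165 calls over all probes and from 0 to 3 among the members. The replicate block gave 0 and 0 (Pcsk2 A_55_P2718648 adjusted p = 0.0802, Pcsk1n 0.104), and deviations of arrays with the same number correlated at 0.0073, 0.026 and 0.081, so the numbers were not taken to pair the samples, and 2 of the 3 numbers correlated best with their own. The other granule genes had 3 calls in the deposited table, 1 with 75th percentile scaling (Resp18), 1 with GC correction (Ptprn2, not among the 3) and 0 with the replicate block. Signs changed with 75th percentile scaling for Scg3 (0.24), Chgb (0.38), Scg2 (0.12) and Cpe (0.48), for Chga with GC correction (-0.04) and without GSK-J4 array 1 (-0.01, in a range of -0.01 to 0.06 over the arrays left out), and for Vgf A_55_P2085060 without vehicle array 1 (-0.02) or GSK-J4 array 1 (-0.05, in a range of -0.05 to 0.15). The Pcsk2 probe A_55_P2718648 ranged from -1.22 to -0.77 and passed in 11 of 15, and Pcsk1n ranged from 0.02 to 0.81 and passed in 7 of 15. The causes were not tested. Depth here is signal over background, with 62.8% to 63.6% of probes well above it for vehicle and 57.7% to 58.7% for GSK-J4.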

Other observations

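Among all 6 arrays, GSK-J4 array 1 held the highest value for 6 of the 12 member probes, including Chga, Scg5 and Pcsk1, and the lowest for 3. Its median deviation over the member probes was 0.12, compared with -0.05 and -0.07 for the other GSK-J4 arrays. Over all kept probes the same deviations were 0.01, 0.01 and 0.05. Vehicle array 1, which had the highest choroid plexus signal, held the lowest value for 5 member probes and the highest for 2.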
